A study of Mus musculus with 6 samples.

Results

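Neuronal tubulins and proteins that bind, move along or anchor to microtubules were followed in mouse medulloblastomas with and without Crebbp. The 46 genes were taken from a list of the neuronal cytoskeleton and of RNA-binding proteins that mark neurons. For 45 of them the array held at least 1 feature, a set of probes summarised together, that the platform annotation gives exactly 1 gene symbol, out of 22180 genes measured in this way. The alpha tubulin gene Tuba4a was the exception, because its feature also carries the symbol Stk16. Where a gene had several features, the one with the highest mean over the 6 arrays was used. The difference between genotypes played no part in that choice.

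Microtubules are hollow polymers of alpha and beta tubulin that grow at one end, and in a neuron they fill the axon and dendrites as tracks for kinesin and dynein motors. Doublecortin, tau and other microtubule-associated proteins stabilise them, stathmins take up free tubulin dimers, and neurofilaments add calibre to the axon. In the cerebellum, granule neuron progenitors divide at the surface, leave the cycle, extend axons and migrate inward, and genes such as Dcx, Tubb3 and Stmn2 are known as markers of this young neuronal state.

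The 6 tumours were Sonic hedgehog medulloblastomas, cerebellar tumours driven in all animals by SmoM2, an active form of the hedgehog transducer Smoothened. The 3 knockout tumours carried Math1Cre::CrebbpFl/FlSmoM2Fl/+ and the 3 wild type tumours Math1Cre::SmoM2Fl/+, and in both genotypes a tamoxifen-dependent Cre under Math1 (Atoh1) control acts in granule neuron progenitors. Tamoxifen (1 mg) was injected at postnatal day 5 and tumours were taken at postnatal day 60, while the age label states day 5. Crebbp encodes a histone acetyltransferase and coactivator of CREB. The number of arrays, 3 per genotype, limits the precision. The titles number the replicates 1 to 3 in each genotype and do not say that these are separate tumours, animals or litters. Each array is called a tumour throughout, and a p-value here reflects the spread of these arrays, which may be technical.

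Values are log2 expression levels made with RMA, so that a difference of 1 is a doubling, and differences are knockout minus wild type. Crebbp itself had log2 levels of 11.24, 11.34 and 11.20 in knockout tumours, against 11.80, 11.76 and 11.70 in wild type tumours (limma adjusted p = 0.0948; exact two-sided permutation p = 0.1, which is the lowest value possible with 3 against 3 arrays). The groups did not overlap, and the labels do not say which exons were deleted, so probes outside the deletion may contribute. Xist, the RNA of the inactive X chromosome, had log2 levels of 12.26 to 12.45 in knockout tumours, against 5.13 to 5.74 in wild type tumours, and the Y-linked Kdm5d lay at 4.59 to 4.75 in knockout tumours, against 9.32 to 9.37 in wild type tumours. All knockout arrays thus carried the female and all wild type arrays the male pattern of sex-linked transcripts, so sex and genotype cannot be told apart in any value below. Values of 4 sex-linked genes in the group that lacks them ran from 4.31 to 5.74 and are used as a guide to the level of an absent transcript. Of the 45 genes, 0 had a value that low in any array, the lowest being 5.90 for Tuba8 in wild type replicate 1. The guide rests on 4 features only, so a value above it does not show that a gene was expressed.

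None of the 45 genes passed an adjusted p of 0.05 in limma, a linear model fitted to all genes with Benjamini-Hochberg adjustment, against 0.207% of all genes. Their smallest adjusted p was 0.137. At an unadjusted p under 0.05 there were 8, or 17.8% of the 45, against 13.8% of all genes, 7 of them lower (6.51% of all genes) and 1 higher in knockout tumours (7.24% of all genes). Those lower were the RNA-binding protein Elavl3, the microtubule stabiliser Map6, the growth cone genes Crmp1 and Dpysl5, the stathmin Stmn2, the doublecortin-like kinase Dclk1 and the ankyrin Ank3, by 0.25 to 0.54 on the log2 scale. The one higher was the kinesin recruiter Map7. The 8 became 4 of 45 when knockout replicate 1 was left out, against 10.3% of all genes in that fit. They became 13 of 45 when wild type replicate 3 was left out, against 16.7% of all genes.

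In 7 genes the groups did not overlap, 15.6% of the 45, which is below the 19.6% of all genes. Knockout tumours were the lower group in 6, Elavl3, Map6, Crmp1, Dpysl5, Ank3 and the end-binding protein Mapre1 (13.3%, against 9.43% of all genes), and the higher group in Map7 (2.22%, against 10.2%). The number of separated genes is thus close to what the arrays show for genes in general. The sign of the differences leaned more to one side, with 31 negative and 14 positive, or 68.9% negative against 49.1% of all genes. The median log2 change was -0.12, against 0.00 over all genes. Leaving out knockout replicate 1 gave a median of -0.06. Leaving out wild type replicate 1 gave -0.07, with 26 of 45 changes negative against 50.8% of all genes in that fit. Leaving out wild type replicate 3 gave -0.22, with 34 of 45 negative against 47.4% of all genes. All 45 log2 changes lay between -0.54 and 0.44. The ends of the range over all genes, -4.91 and 6.91, belong to the sex-linked Uty and Xist, so that range is no measure for these genes. Since the tumours were measured in bulk, fewer cells of a type and less RNA per cell cannot be told apart.

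**Figure D1:**
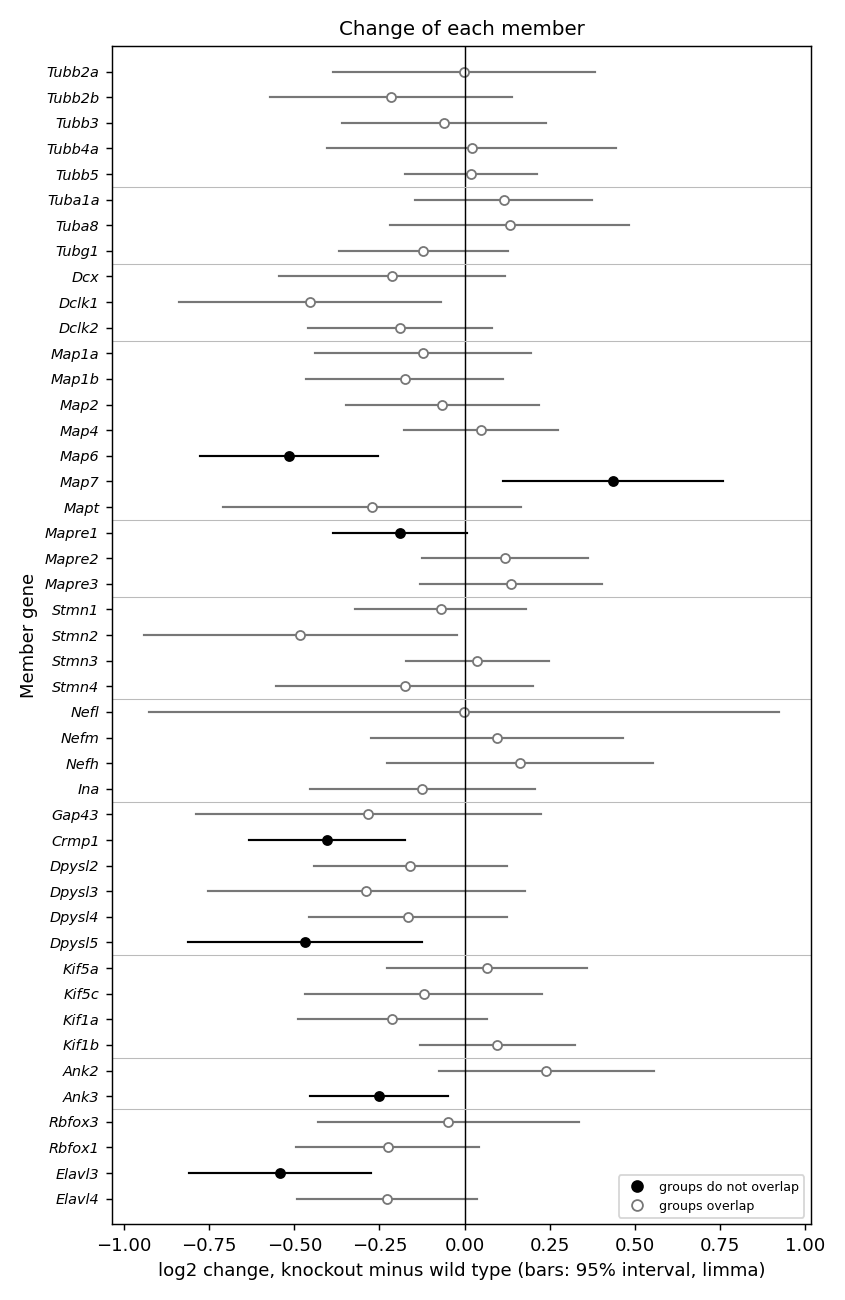
Log2 change (knockout minus wild type, x axis) of the 45 measured genes (y axis), grouped by role between thin lines. Points are limma estimates and bars their 95% intervals; filled points mark the 7 genes whose groups do not overlap, 6 below and 1 above 0, and Nefl has the widest interval, from -0.93 to 0.92.

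Crebbp is a coactivator of CREB, a factor that binds the cAMP response element, so the RefSeq promoter windows (GRCm38.p6, 250 bases before to 50 after the start site) were searched on both strands for the complete element TGACGTCA and for its part TGACG, which the complete element contains. Windows were found for 29 of the 46 genes, 43 windows in all. The complete element occurred in 2 of the 43 windows, those of Tubb2a and Kif5c, against 1.79% of all 32851 windows. TGACG occurred in 14 of the 43, against 20.8% of all windows. Windows of the same gene can overlap and hold the same match. Counted by gene, the complete element occurred in 2 of the 29, against 2.03% of all genes. TGACG occurred in 11 of the 29, against 23.0% of all genes. Tuba4a, among these 11, is the gene without a usable feature. Among the genes with separated groups, windows were at hand for Crmp1, Dpysl5, Elavl3, Mapre1 and Map7, of which Crmp1 and Mapre1 held TGACG. A match describes these letters only. The 160 bases before the start site are printed 5′ to 3′ for these 5 genes and for the 2 with the complete element, so that promoters of genes with and without a separation can be set side by side; capitals mark the complete element or its part on either strand. The stretches are Elavl3 at chr9:22052024-22052183 on the minus strand, Crmp1 at chr5:37241898-37242057 on the plus strand, Dpysl5 at chr5:30711404-30711563 on the plus strand, Mapre1 at chr2:153741127-153741286 on the plus strand, Map7 at chr10:20148760-20148919 on the plus strand, Tubb2a at chr13:34078009-34078168 on the minus strand and Kif5c at chr2:49619126-49619285 on the plus strand.
Elavl3: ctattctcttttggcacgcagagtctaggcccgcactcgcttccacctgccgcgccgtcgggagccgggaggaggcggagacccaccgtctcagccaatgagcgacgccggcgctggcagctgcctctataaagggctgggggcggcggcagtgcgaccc
Crmp1: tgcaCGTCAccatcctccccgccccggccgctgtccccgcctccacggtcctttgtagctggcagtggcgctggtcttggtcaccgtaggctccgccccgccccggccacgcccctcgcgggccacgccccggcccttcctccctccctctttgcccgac
Dpysl5: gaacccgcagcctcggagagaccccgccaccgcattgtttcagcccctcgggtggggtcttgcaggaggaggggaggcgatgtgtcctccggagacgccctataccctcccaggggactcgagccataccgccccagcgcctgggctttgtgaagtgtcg
Mapre1: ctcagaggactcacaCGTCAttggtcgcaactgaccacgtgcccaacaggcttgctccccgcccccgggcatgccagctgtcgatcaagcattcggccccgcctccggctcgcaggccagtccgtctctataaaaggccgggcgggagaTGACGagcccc
Map7: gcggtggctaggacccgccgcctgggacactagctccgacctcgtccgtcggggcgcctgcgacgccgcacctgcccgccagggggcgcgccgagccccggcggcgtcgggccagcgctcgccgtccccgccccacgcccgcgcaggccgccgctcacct
Tubb2a: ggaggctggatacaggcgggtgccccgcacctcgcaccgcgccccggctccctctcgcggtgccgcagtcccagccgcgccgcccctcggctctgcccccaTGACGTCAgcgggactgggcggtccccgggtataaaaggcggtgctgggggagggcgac
Kif5c: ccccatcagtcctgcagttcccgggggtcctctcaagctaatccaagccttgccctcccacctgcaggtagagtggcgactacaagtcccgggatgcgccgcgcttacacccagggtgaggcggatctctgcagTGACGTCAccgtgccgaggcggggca
The complete element stood at bases -59 to -52 from the Tubb2a start site and -26 to -19 from that of Kif5c. Both genes had overlapping groups, with log2 changes of 0.00 (95% interval -0.39 to 0.38) for Tubb2a and -0.12 (-0.47 to 0.23) for Kif5c. The GC content of the 250 bases before the start was 61.6% for Elavl3, 75.6% for Crmp1, 62.8% for Dpysl5, 59.2% for Mapre1, 80.4% for Map7, 68.4% for Tubb2a and 55.2% for Kif5c, against a median of 56.8% over the 43 windows and 52.4% over all windows.

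The largest change of a single gene on the list was that of an RNA-binding protein. Elavl3 (feature 17524895, chromosome 9) encodes HuC, which binds AU-rich stretches of neuronal transcripts and appears as progenitors turn into neurons. It had log2 levels of 11.44, 11.72 and 11.48 in knockout tumours, against 12.24, 12.03 and 11.99 in wild type tumours. Every knockout value lay below every wild type value, with means of 11.54 ± 0.15 in knockout and 12.09 ± 0.13 in wild type tumours (SD, n = 3 each) and a log2 change of -0.54 (95% interval -0.81 to -0.28, adjusted p = 0.137), a knockout level 0.687 times that of wild type. Leaving out single tumours kept the change between -0.63 and -0.47. Its paralogue Elavl4 had a log2 change of -0.23 (SE 0.11), with overlapping groups. Rbfox3, the splicing factor detected by the NeuN antibody, had log2 levels of 10.35, 10.32 and 10.38 in knockout tumours, against 10.68, 10.49 and 10.01 in wild type tumours. The knockout tumours agree closely with each other and sit inside the wild type range, so the log2 change of -0.05 (95% interval -0.43 to 0.33) is small beside the wild type spread. Rbfox1 lay at -0.23 (SE 0.12), and all 4 genes of this role had negative changes.

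Growth cone genes and the collapsin response mediator proteins (CRMPs), which couple guidance cues to tubulin, all had negative changes, 6 of 6, with a median of -0.29. Crmp1 (feature 17436999, chromosome 5) had log2 levels of 11.78, 11.91 and 11.74 in knockout tumours, against 12.34, 12.18 and 12.13 in wild type tumours. The groups are apart by more than the spread within either, with a log2 change of -0.40 (95% interval -0.63 to -0.18, adjusted p = 0.174). Dpysl5 (feature 17435834, chromosome 5), the most divergent CRMP, had 9.66, 10.01 and 9.89 in knockout tumours, against 10.59, 10.27 and 10.11 in wild type tumours. Here the groups nearly touch, since knockout replicate 2 lies just below wild type replicate 3, and the change was -0.47 (SE 0.15, adjusted p = 0.24). The promoters of both genes are shown above. Gap43, a membrane protein of growth cones, had 9.82, 10.47 and 10.43 in knockout tumours, against 10.81, 10.59 and 10.17 in wild type tumours. Wild type replicate 3 falls below both knockout replicates 2 and 3, and the change of -0.28 (SE 0.22) moved to -0.07 when knockout replicate 1 was left out and to -0.46 when wild type replicate 3 was. Dpysl2, Dpysl3 and Dpysl4 had log2 changes of -0.16, -0.29 and -0.17, each with overlapping groups.

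Among structural microtubule-associated proteins, 5 of 7 had negative changes and the differences went both ways. Map6 (feature 17480515, chromosome 7), a protein that keeps neuronal microtubules stable in the cold, had log2 levels of 8.24, 8.53 and 8.46 in knockout tumours, against 9.05, 8.91 and 8.82 in wild type tumours. Its groups are clearly apart, with a log2 change of -0.51 (95% interval -0.78 to -0.25, adjusted p = 0.145), a knockout level 0.7 times that of wild type. The gene's other feature had no such separation, with 7.85, 8.21 and 8.05 in knockout tumours, against 8.25, 7.89 and 8.09 in wild type tumours, and a change of -0.04 (SE 0.13). The difference of Map6 is therefore seen with 1 of its 2 features.

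Map7 (feature 17231925, chromosome 10), which brings kinesin-1 to microtubules, had the largest positive change of the 45. It had 7.50, 7.01 and 7.35 in knockout tumours, against 6.97, 6.82 and 6.76 in wild type tumours. Knockout replicate 2 lies only just above wild type replicate 1, and the change was 0.44 (95% interval 0.11 to 0.76, adjusted p = 0.242), or 1.35 times the wild type level. Mapt, which encodes tau, had 8.46, 8.65 and 8.68 in knockout tumours, against 9.20, 8.97 and 8.43 in wild type tumours. Wild type replicate 3 was the lowest of all 6 and the groups overlap (change -0.27, 95% interval -0.71 to 0.17). The change moved to -0.11 when wild type replicate 1 was left out and to -0.49 when wild type replicate 3 was. Map2, the dendritic protein, had 11.55, 11.84 and 11.77 in knockout tumours, against 11.94, 11.80 and 11.61 in wild type tumours, a change of -0.07 (95% interval -0.35 to 0.22) that took either sign when single tumours were left out. Map1a, Map1b and the broadly expressed Map4 had changes of -0.12, -0.18 and 0.05, with overlapping groups.

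The doublecortin family, whose members bind microtubules in migrating neurons, had 3 negative changes of 3. Dclk1 (feature 17397708, chromosome 3) had log2 levels of 10.58, 10.76 and 10.88 in knockout tumours, against 11.29, 11.46 and 10.84 in wild type tumours. Wild type replicate 3 lies within the knockout range, and the change was -0.45 (SE 0.17, adjusted p = 0.298). Leaving out single tumours moved it between -0.63 (that same tumour left out) and -0.32 (wild type replicate 2 left out). Dcx, doublecortin itself, is X-linked. It had 11.48, 11.91 and 11.79 in knockout tumours, against 12.09, 11.99 and 11.74 in wild type tumours, with overlapping groups and a change of -0.21 (95% interval -0.54 to 0.12). The change was smallest, -0.09, when knockout replicate 1 was left out and largest, -0.31, when wild type replicate 3 was. Dclk2 lay at -0.19 (SE 0.12).

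Stathmins bind free tubulin dimers and promote microtubule disassembly. Stmn2 (feature 17396024, chromosome 3), the growth-associated stathmin of neurons, had log2 levels of 11.76, 12.38 and 12.44 in knockout tumours, against 12.84, 12.77 and 12.42 in wild type tumours. Knockout replicate 1 is far below the rest, while knockout replicate 3 and wild type replicate 3 are almost equal. The change was -0.48 (95% interval -0.94 to -0.02, adjusted p = 0.341), and leaving out single tumours moved it between -0.61 and -0.27, with -0.27 when knockout replicate 1 was left out. Stmn1, Stmn3 and Stmn4 had changes of -0.07, 0.04 and -0.18, each with overlapping groups.

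**Figure D2:**
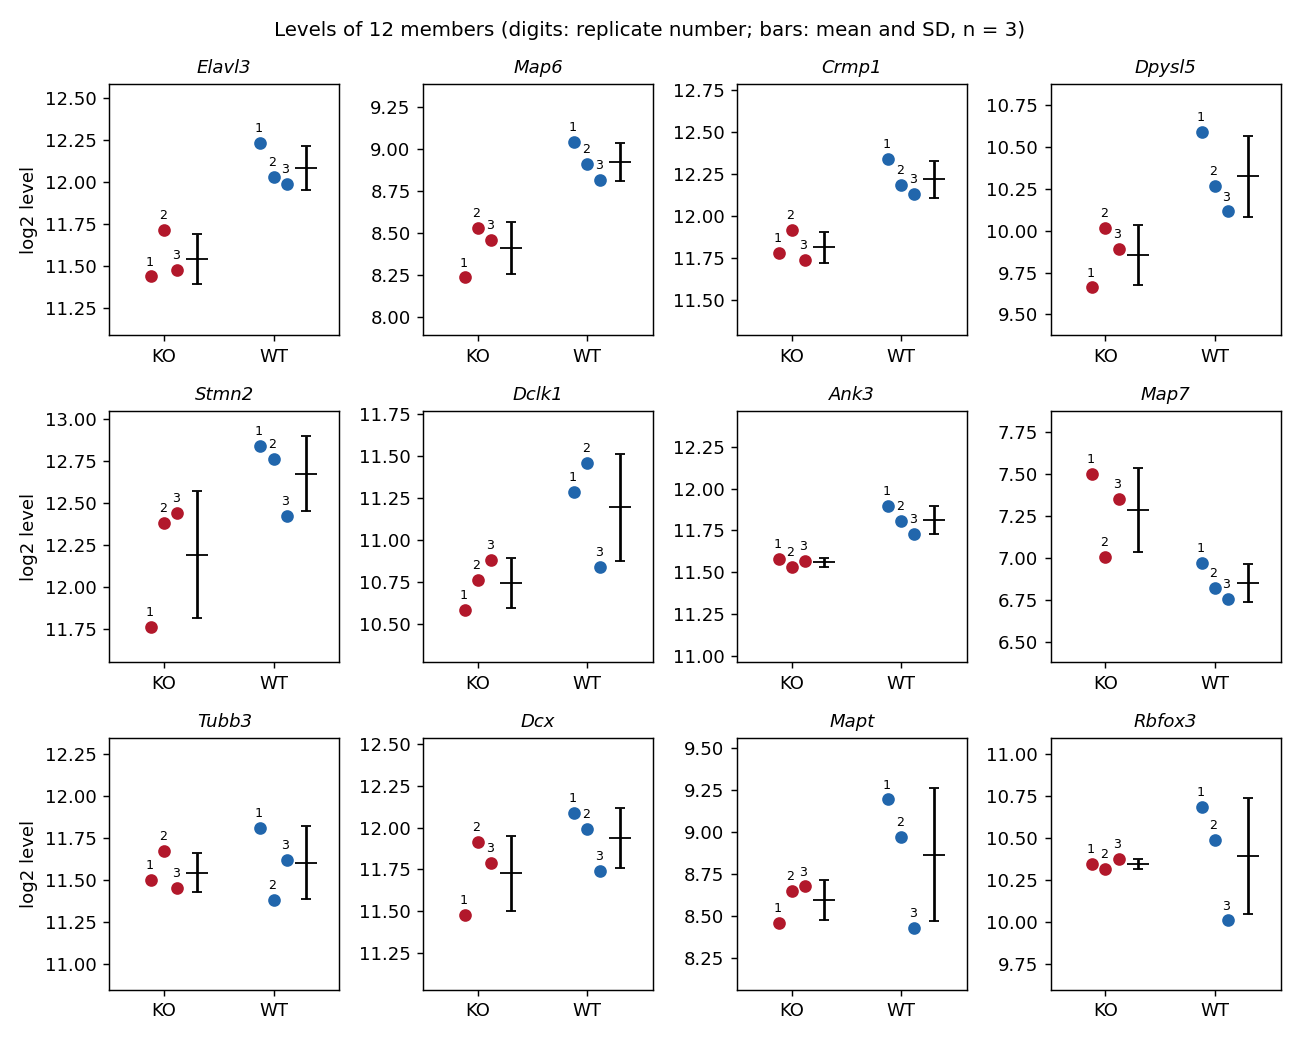
Log2 levels (y axis, each panel spanning the same range) of 12 genes in knockout (KO, red) and wild type (WT, blue) tumours, with the replicate number above each point and the mean and SD beside it. Elavl3, Map6, Crmp1, Dpysl5 and Ank3 have every knockout point below every wild type point and Map7 every one above, while wild type replicate 3 lies among or below the knockout tumours in Stmn2, Dclk1, Dcx, Mapt and Rbfox3.

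Tubulins themselves differed little by the features used. Tubb3, the neuronal beta tubulin recognised by the TuJ1 antibody, had log2 levels of 11.50, 11.67 and 11.45 in knockout tumours, against 11.81, 11.38 and 11.62 in wild type tumours. The groups are interleaved, with a change of -0.06 (95% interval -0.36 to 0.24). Tubb5, a beta tubulin abundant in dividing neural cells, had 13.57 ± 0.01 in knockout and 13.55 ± 0.06 in wild type tumours (SD, n = 3 each), a change of 0.02 (95% interval -0.18 to 0.21). Tubb2a, Tubb2b, Tubb4a, Tuba1a, Tuba8 and the centrosomal gamma tubulin Tubg1 had changes of 0.00, -0.22, 0.02, 0.12, 0.13 and -0.12. The intervals of all 8 tubulins included 0, with outermost bounds of -0.57 (Tubb2b) and 0.48 (Tuba8). Tubulin isotypes share long stretches of sequence, and probes of one can bind transcripts of another, so single isotypes are uncertain.

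A different picture came from the second features. Of the 45 genes, 7 had a second feature of lower mean, and all 7 of these had negative changes, with opposite signs on the 2 features of 3 genes. For Tubb2b the second feature (17286496) had log2 levels of 8.62, 8.35 and 7.01 in knockout tumours, against 9.90, 9.56 and 9.28 in wild type tumours. For Tubb5 the second feature (17548000) had 10.67, 10.15 and 9.54 in knockout tumours, against 11.39, 11.38 and 10.97 in wild type tumours. For Tuba1a (second feature 17314682) the values were 8.79, 8.74 and 8.21 in knockout tumours, against 9.45, 9.45 and 9.18 in wild type tumours. In all 3 the groups are apart and knockout replicate 3 is the lowest, which neither the first features of Tubb5 nor of Tuba1a show.

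The changes of these second features were -1.59 (SE 0.39, adjusted p = 0.144 over the 23521 features with 1 symbol) for Tubb2b, -1.13 (SE 0.27, adjusted p = 0.134) for Tubb5 and -0.78 (SE 0.17, adjusted p = 0.115) for Tuba1a. The second feature of Stmn4 was lower as well, with 8.09, 8.15 and 8.24 in knockout tumours, against 8.65, 8.64 and 8.49 in wild type tumours (change -0.43, SE 0.09, adjusted p = 0.115). The groups were separated with knockout below in 4 of the 7 second features, against 24.9% of the 1341 features not used for a gene on the whole array, and the same 4 had an unadjusted p under 0.05, against 23.3%. Over those 1341 features 61.6% of changes were negative, with a median of -0.08. Negative changes were thus more frequent among such features throughout the array than among the genes tested (49.1%), and what these tubulin features bind is not known from the sources used here.

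**Figure D3:**
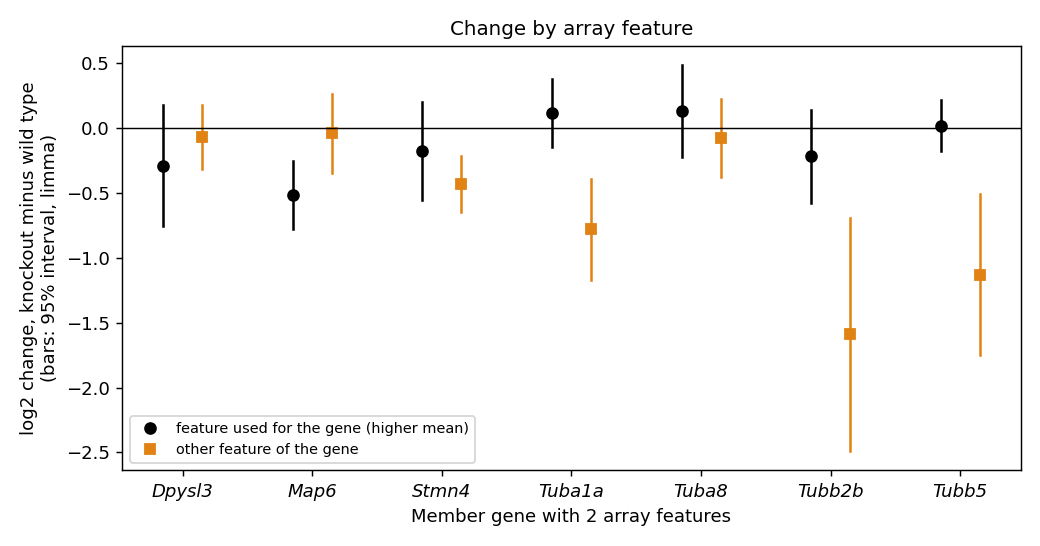
Log2 change (knockout minus wild type, y axis) for the 7 genes with 2 array features (x axis); circles are the feature used for the gene, squares the other one, and bars 95% intervals from limma over all features. The squares of Tubb2b, Tubb5 and Tuba1a lie at -1.59, -1.13 and -0.78 while the circles of the same genes lie between -0.22 and 0.12, and for Map6 the order is the other way round.

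End-binding proteins ride on growing microtubule tips. Mapre1 (EB1, feature 17377989, chromosome 2) had log2 levels of 10.52, 10.65 and 10.61 in knockout tumours, against 10.81, 10.77 and 10.77 in wild type tumours. The groups are apart by little, with a change of -0.19 (95% interval -0.39 to 0.01), while Mapre2 and the neuronal Mapre3 lay at 0.12 and 0.14 with overlapping groups. The ankyrins, which link membrane proteins to the spectrin skeleton, went in opposite directions. Ank3, the organiser of the axon initial segment, had 11.58, 11.53 and 11.57 in knockout tumours, against 11.89, 11.81 and 11.73 in wild type tumours, a small and tightly measured difference of -0.25 (SE 0.09, adjusted p = 0.284). Ank2 had 11.36, 11.54 and 11.66 in knockout tumours, against 11.53, 11.13 and 11.18 in wild type tumours, a change of 0.24 (SE 0.14) with overlapping groups. The difference between the 2 ankyrins was not tested.

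Neurofilament subunits varied more between tumours of a genotype than between genotypes. Nefl, the light subunit, had log2 levels of 7.21, 7.82 and 7.36 in knockout tumours, against 8.34, 7.49 and 6.56 in wild type tumours. Wild type replicate 1 was the highest and wild type replicate 3 the lowest of the 6, an SD of 0.89 in wild type tumours beside 0.32 in knockout tumours. The change of 0.00 therefore has an interval of -0.93 to 0.92, and without wild type replicate 1 or 3 it was 0.44 or -0.45. Nefh, the heavy subunit of mature axons, had 7.08, 6.77 and 7.33 in knockout tumours, against 6.74, 6.79 and 7.15 in wild type tumours, with overlapping groups and a change of 0.16 (SE 0.17). Nefm and the alpha-internexin gene Ina had changes of 0.09 and -0.12. The kinesin motors Kif5a and Kif5c, which carry axonal cargo, and Kif1a and Kif1b, which carry synaptic vesicle precursors and mitochondria, had changes of 0.07, -0.12, -0.21 and 0.10, all with overlapping groups.

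Single tumours ranked in a repeated way across these genes. Wild type replicate 1 was the highest of the 6 arrays in 28 of the 45 genes (62.2%, against 13.6% of all genes), and wild type replicate 3 was the lowest wild type array in 32 (71.1%, against 34.4% of all genes). Knockout replicate 1 was the lowest of the 6 in 17 (37.8%, against 16.8%). The spread among wild type tumours was therefore shared by many of these genes, and a difference such as that of Dclk1 or Gap43 depends on which wild type tumour is compared. The genes are not independent of each other, and the shares are a description of these arrays.

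**Figure D4:**
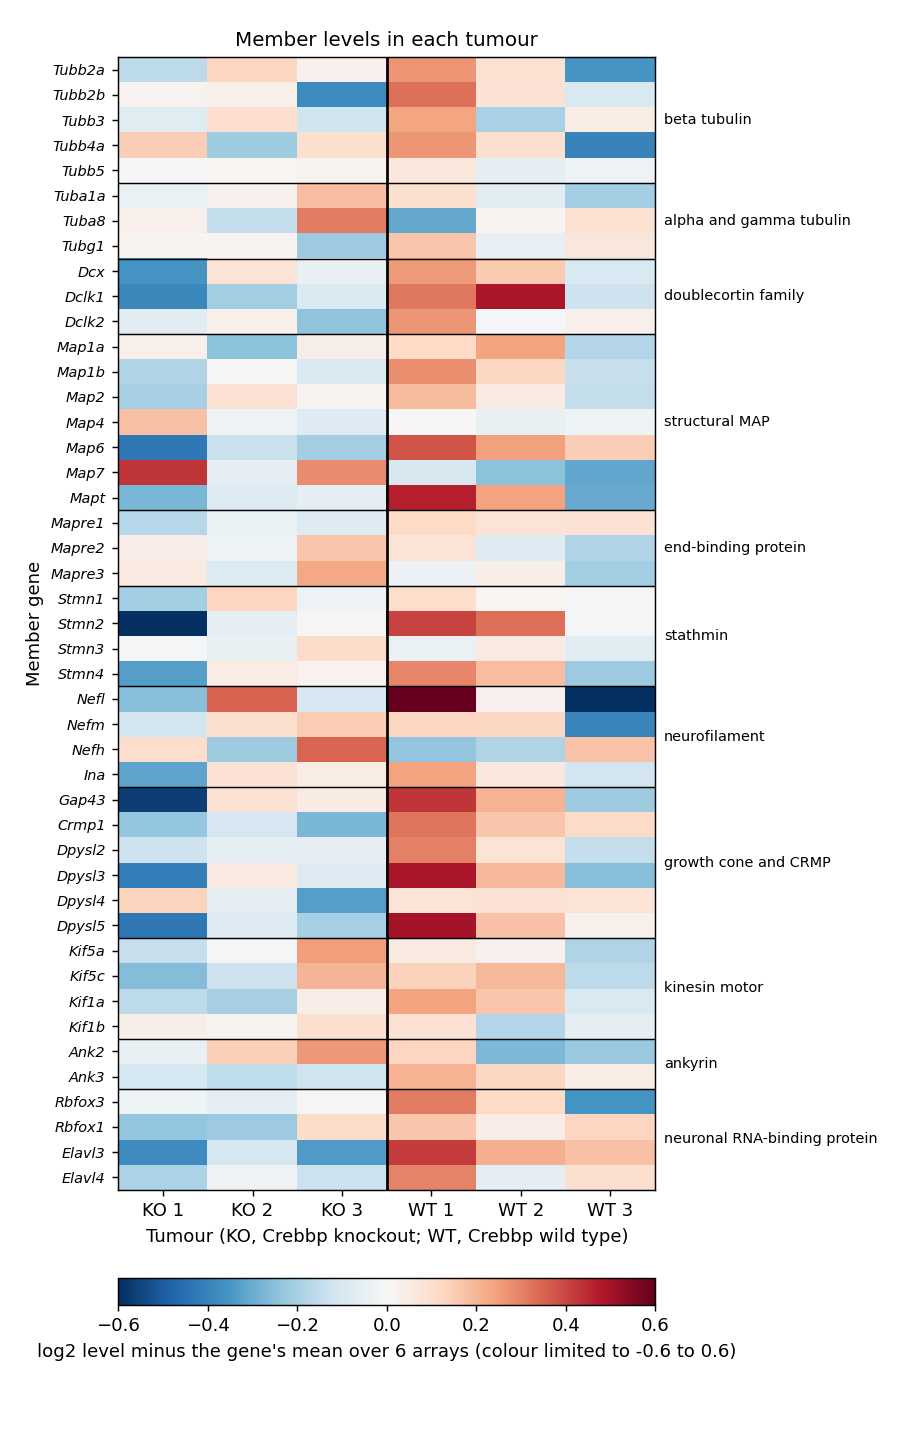
Log2 level of each gene (rows, grouped by role) in each tumour (columns; KO, Crebbp knockout, left; WT, wild type, right) minus the gene's mean over the 6 arrays, as colour. Red is above and blue below the mean; the wild type replicate 1 column is mostly red, being the highest array in 28 of 45 rows, and the knockout replicate 1 column is mostly blue.

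Further genes of the pathway, 97 measured, were read beside the 45 from 6 lists chosen for their roles. None passed the threshold over all genes, and 19 had an unadjusted p under 0.05 (19.6%, against 13.8% of all genes), 14 lower and 5 higher in knockout tumours (6.51% and 7.24% of all genes). Among 11 other tubulins, Tuba1c had log2 levels of 9.08, 8.87 and 8.14 in knockout tumours, against 7.76, 7.13 and 7.30 in wild type tumours (change 1.30, SE 0.26, adjusted p = 0.121). Tuba1b had 9.81, 9.44 and 9.06 in knockout tumours, against 10.20, 10.13 and 10.07 in wild type tumours (change -0.70, SE 0.18, adjusted p = 0.183). These near-identical alpha tubulins differed in opposite directions, each with separated groups, and the uncertainty about shared probes applies to both.

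Of 13 neuronal RNA-binding proteins outside the 45, 10 had negative changes (median -0.15), among them the CELF family protein Celf5 at -0.62 (SE 0.13, adjusted p = 0.136) and the splicing factor Nova2 at -0.43 (SE 0.11, adjusted p = 0.179). Celf5 had 8.37, 8.79 and 8.78 in knockout tumours, against 9.34, 9.20 and 9.26 in wild type tumours, with no overlap. Of 11 axon and initial segment partners, 8 had negative changes, with the growth cone protein Basp1 at -0.55 (SE 0.14) and the initial segment spectrin Sptbn4 at -0.43 (SE 0.11). Of 25 severing, end-binding and kinase genes, 16 had negative changes, with the severing enzyme Spast at -0.36 (SE 0.09) and the CDK5 activator Cdk5r1 at -0.62 (SE 0.22). Of 20 further kinesin and dynein genes, 15 had negative changes, with Kif2a at -0.29 (SE 0.09), while the dynein subunit Dync1i1 lay at 1.11 (SE 0.33). Of 17 tubulin folding and modifying enzymes, 8 had negative changes, with the polyglutamylase Ttll7 at 0.55 (SE 0.21) and the tubulin carboxypeptidase Vash2 at 0.46 (SE 0.23). Of the genes named in this paragraph, Cdk5r1, Ttll7 and Vash2 had overlapping groups and the others did not.

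Markers of other cells differed between the tumours beside these genes. Levels of a list's members were added on the linear scale and are given as log2. The 8 measured markers of granule neuron progenitors summed to 13.79 to 14.13 in knockout tumours, against 14.35 to 14.43 in wild type tumours, with 7 of 8 negative changes. Those of differentiating and mature granule neurons summed to 13.13 to 13.88 in knockout tumours, against 13.23 to 13.43 in wild type tumours, with 8 of 11 positive changes. Those of Purkinje cells and inhibitory neurons summed to 11.38 to 12.78 in knockout tumours, against 11.09 to 11.56 in wild type tumours, with 8 of 8 positive.

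Gabra6, a GABA receptor subunit of mature granule neurons, had log2 levels of 10.35, 7.74 and 10.49 in knockout tumours, against 5.33, 6.58 and 8.53 in wild type tumours. Knockout replicate 2 was below wild type replicate 3, and wild type replicate 1 alone was at the level of an absent transcript. Neurod1, a transcription factor of differentiating granule neurons from the same list, went the other way, with 8.10, 7.89 and 8.15 in knockout tumours, against 9.33, 9.58 and 8.64 in wild type tumours (change -1.14, SE 0.23, adjusted p = 0.121). Its groups did not overlap, with every knockout tumour lower, so the list did not move as one. Astrocyte and Bergmann glia markers summed to 13.63 to 13.87 in knockout tumours, against 12.58 to 13.78 in wild type tumours (7 of 8 positive), with wild type replicate 3 near the knockout tumours. Markers of oligodendrocytes, which also express Tubb4a, summed to 12.34 to 12.60 in knockout tumours, against 12.64 to 12.79 in wild type tumours (5 of 10 positive), and Ermn and Opalin reached the absent level in some arrays. Most of that sum is Pdgfra, a receptor of oligodendrocyte precursors, with 11.43, 11.79 and 11.84 in knockout tumours, against 12.15, 12.07 and 12.19 in wild type tumours. Without Pdgfra the other 9 summed to 11.33, 10.68 and 11.31 in knockout tumours, against 11.31, 11.13 and 10.75 in wild type tumours, and the groups overlapped.

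Microglia and macrophage markers summed to 12.70 to 13.03 in knockout tumours, against 13.25 to 13.39 in wild type tumours (9 of 9 negative), and endothelial and pericyte markers to 10.97 to 11.44 in knockout tumours, against 10.87 to 11.13 in wild type tumours (6 of 6 positive). The 45 genes themselves summed to 16.40 to 16.55 in knockout tumours, against 16.49 to 16.78 in wild type tumours. The part of these cell types in the differences of the 45 genes was not tested.

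**Figure D5:**
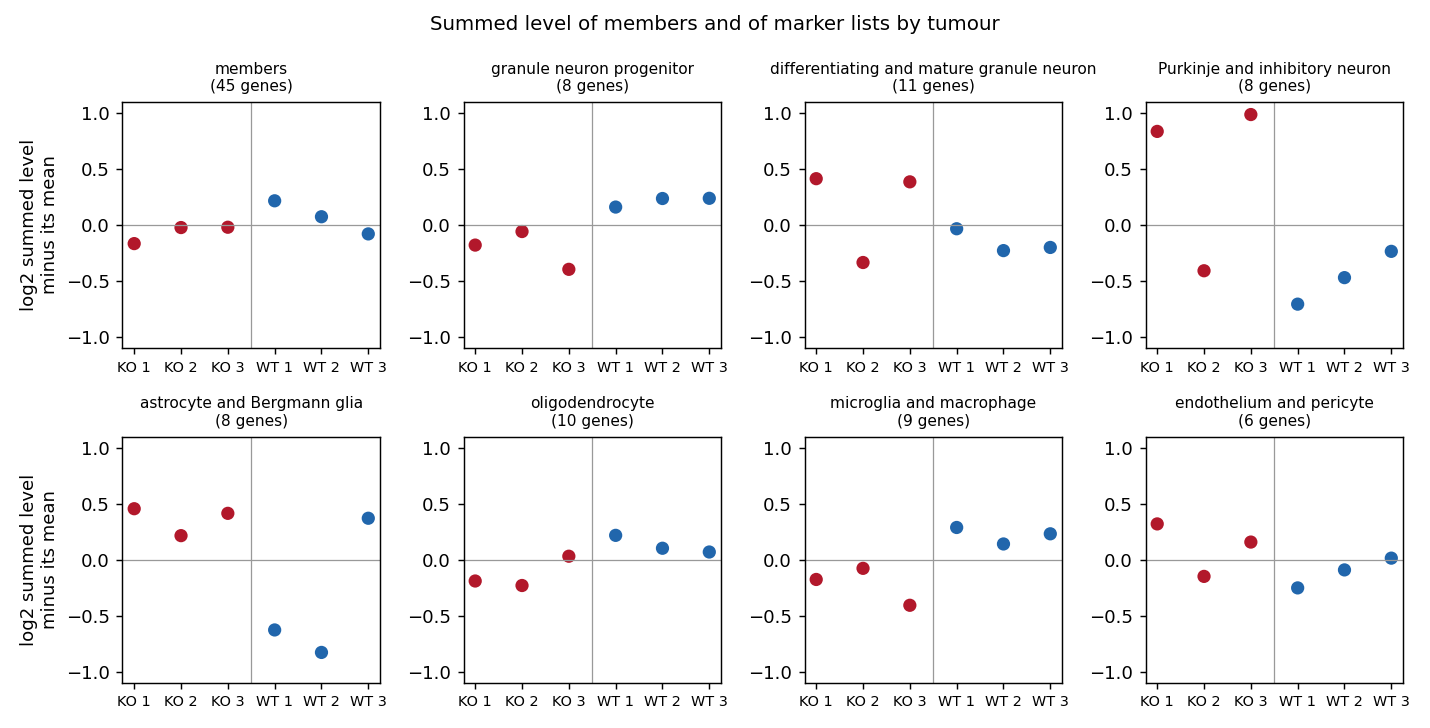
Log2 of the summed linear level of the 45 genes ("members") and of 7 marker lists in each tumour, minus the mean over the 6 tumours (y axis); knockout tumours (KO, red) stand left of wild type tumours (WT, blue). Knockout replicates 1 and 3 lie far above the others for Purkinje cell markers, wild type replicate 3 lies with the knockout tumours for astrocyte markers, and the 45 genes span a narrow range.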

How the data were processed

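Tumour RNA was hybridised to 6 Affymetrix whole-transcript arrays, and samples were grouped by their titles. The authors deposited log2 values, and the submitters' processing notes name RMA and the oligo package, without versions. This method equalises arrays and compresses changes of dim features, so a shift shared by most genes would be lost. The 41345 features were named through the platform annotation: 23521 had 1 symbol, 1814 several, and 16010 were unnamed here. Chromosomes and promoters came from RefSeq (GRCm38.p6).

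limma 3.58.1 in R 4.3.3 (lmFit, eBayes without trend, two-sided) was fitted to all 22180 genes on the values as deposited, with Benjamini-Hochberg adjustment, a threshold of 0.05 and no filter. The fit was tested on simulated data. Arrays give no read depth, and the table holds no detection calls. Values per array are given for genes at an unadjusted p under 0.05, for 8 usual neuronal markers, and for the 3 largest changes each way; Mapre1, the second features, Gabra6, Neurod1 and Pdgfra were added after their values were seen. Of the further pathway genes, the 2 with the smallest p per list were named. The genes, lists and tests were chosen with earlier results of these data known. Alternatives covered scaling, dim genes, the variance model, array weights, features per gene, a replicate block, X and Y genes, and leaving out each array.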

Additional observations from a re-analysis of the deposited data

How the results depend on the processing

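None of the 45 genes passed the threshold under any alternative run. Their count was 0 in the fit with arrays centred on their medians, after quantile normalization, without the dimmest 50% of genes (which leaves 41 of the 45), with an intensity trend, with array weights, with the mean of all features, without X and Y genes, with the replicate block and without each tumour. The smallest adjusted p over all of these was 0.0607, for Elavl3 with an intensity trend. The count of negative changes ran from 26 to 34 and the median log2 change from -0.22 to -0.06 when single tumours were left out; under the other alternatives the count was 30 to 33 and the median -0.18 to -0.10. Over all genes, 107 passed with an intensity trend, against 46 as reported, and 4 to 128 passed when single tumours were left out. With the replicate block 12 genes passed over all genes and the median of the 45 was -0.12. In that fit 7 of the 45 had an unadjusted p under 0.05 (13.9% of all genes), 6 of them lower, against 8 and 7 as reported. Quantile normalization also gave 7 (14.6% of all genes), 6 of them lower. Array weights gave 10 (15.8% of all genes), 9 of them lower, and the mean of all features gave 12 (14.2% of all genes), 11 of them lower. Deviations of tumours with the same number in their titles were weakly correlated (r across genes of -0.03, 0.05 and 0.10). Tumours with different numbers had r from -0.14 to 0.11, and not every tumour correlated best with its own number. Such small correlations cannot show whether the numbers pair the tumours. Leaving out single tumours turned the sign of changes near 0: the change of Nefl ran from -0.45 to 0.44, that of Map2 from -0.15 to 0.019, that of Rbfox3 from -0.24 to 0.10 and that of Tubb3 from -0.17 to 0.0436. The other 13 of the 17 genes recomputed singly kept their sign in each alternative that included them; Map7 and Nefh were not among the brighter genes and Dcx is X-linked, so each is missing from 1. Mapre1, the second features, the further pathway genes and the markers were not recomputed singly. The cause was not tested. The number of arrays limits the precision, since half-widths of the 95% intervals ran from 0.19 to 0.93 on the log2 scale, and sex and genotype cannot be told apart.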
